A study of Mus musculus with 8 samples.

Results

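Avp, Oxt and Crh encode the precursors of vasopressin, oxytocin and corticotropin-releasing hormone. They were taken by gene symbol from all 8 deposited expression tables, and the 3 genes are described here out of 22725 symbols present in the tables of every stage. Hypothalamic RNA of mouse embryos was sequenced at E17.5 and at E12.0 and E12.5, together called E12, from embryos labelled wild-type or Foxd1-mutant. Foxd1 encodes a forkhead transcription factor of the developing hypothalamus, and the title of the study asks about its role in the maturation of anterior hypothalamic neurons. Each genotype had 1 library for each early stage and 2 for E17.5, each from pooled RNA, drawn from 8 Foxd1-null and 10 control embryos in all. The labels word the controls in a way that does not settle their genotype, name no allele, and describe dissections at just E12.5 and E17.5, so the source names were used for both. Nothing states whether the replicate pools were separate litters, so p-values measure the spread between these libraries, which may be technical.

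Vasopressin and oxytocin are made by magnocellular neurons of the paraventricular and supraoptic nuclei, which send axons to the posterior pituitary and release both hormones into the blood. Vasopressin controls water balance and is also made in the suprachiasmatic nucleus, the circadian pacemaker, while oxytocin acts in birth, lactation and social behaviour. Corticotropin-releasing hormone comes from parvocellular neurons of the paraventricular nucleus and drives the pituitary to release corticotropin, the first step of the stress axis. These neuron types share transcription factors in development, among them Otp, Sim1, Arnt2 and Pou3f2.

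Avp and Oxt are neighbours that arose by duplication, and they are shown first because their likeness bears on how reads are assigned to each. In the GENCODE M21 annotation of build GRCm38 both lie on chromosome 2 and face each other, Oxt on the plus strand at chr2:130576173-130577054 and Avp on the minus strand at chr2:130580620-130582554, with 3565 bases between their ends. Crh lies on chromosome 3, minus strand, at chr3:19693401-19695396. The deposited values were made on an earlier build, mm9, and carry no coordinates. Avp and Oxt each have 3 exons, in transcripts of 577 and 537 nt, and Crh has 2 exons in 1320 nt. The middle exon, wholly coding, encodes the central part of neurophysin, the carrier part of both precursors, and is printed here for both genes, with the positions that differ in capitals.
Avp exon 2, chr2:130581056-130581257, minus strand: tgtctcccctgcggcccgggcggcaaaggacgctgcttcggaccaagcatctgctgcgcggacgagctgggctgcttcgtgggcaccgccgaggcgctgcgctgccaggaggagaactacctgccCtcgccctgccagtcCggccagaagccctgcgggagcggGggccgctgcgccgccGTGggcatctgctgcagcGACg
Oxt exon 2, chr2:130576591-130576792, plus strand: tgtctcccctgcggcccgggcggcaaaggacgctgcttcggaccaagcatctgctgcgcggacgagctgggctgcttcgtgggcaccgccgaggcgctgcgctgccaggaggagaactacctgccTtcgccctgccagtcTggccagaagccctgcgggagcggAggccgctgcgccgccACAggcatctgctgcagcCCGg
The exons are 202 nt long in both genes and differ at 9 positions, an identity of 95.5%. The first 125 nt are the same in both, and the longest stretch that the whole transcripts share is 127 nt. Of the 478 windows of 100 nt, the read length, in the Avp transcript, 28 also occur in Oxt, a share of 5.86%, and the same 28 make up 6.39% of the windows of Oxt. Taken alone, a read that lies in these windows names no single gene of the pair. The reads were paired-end, so its mate can name the gene where it covers bases that differ. How many reads were resolved in this way is not known, so the values of Avp and Oxt keep some uncertainty. The shares count exact windows only and do not give the size of that uncertainty. It can weigh more on Oxt, since Avp was 8.84 and 8.05 times Oxt in the wild-type libraries of E17.5. Exons 1 and 3 are less alike, at 61.1% and 41.1% identity, and Crh has no such partner in this pair.

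The upstream 250 bases of Avp and Oxt, from RefSeq on build GRCm38.p6, are shown because the values of both genes were lower together in the mutant libraries. The table used holds no entry for Crh. Capitals mark matches, on either strand, to TGTTTA, a core sequence of forkhead factors, CACGTG, an E-box bound by clock factors, AGGTCA, a recognition sequence of nuclear receptors, and TGACGTCA, the cyclic AMP response element.
Avp promoter, chr2:130582589-130582838, minus strand: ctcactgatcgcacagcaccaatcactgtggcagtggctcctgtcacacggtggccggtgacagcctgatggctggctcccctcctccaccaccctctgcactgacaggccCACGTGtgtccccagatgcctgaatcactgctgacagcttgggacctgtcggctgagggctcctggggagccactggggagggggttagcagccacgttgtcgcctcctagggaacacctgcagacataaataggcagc
Oxt promoter, chr2:130575919-130576168, plus strand: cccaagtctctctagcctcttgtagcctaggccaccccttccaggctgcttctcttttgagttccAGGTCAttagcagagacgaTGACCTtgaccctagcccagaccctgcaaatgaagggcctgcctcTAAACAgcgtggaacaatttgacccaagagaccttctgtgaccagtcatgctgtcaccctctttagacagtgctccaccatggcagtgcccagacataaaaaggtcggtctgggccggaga
Distances are counted from the RefSeq start, which for both genes lies upstream of the GENCODE M21 start given above. The bases between these starts were not searched. Avp held 1 match to CACGTG, beginning 139 bases before the start, and none to the other motifs. Oxt held 1 match to TGTTTA, beginning 121 bases before the start, and 2 to AGGTCA, beginning at 185 and 166. No marked matches overlap each other. Of 32851 RefSeq windows of the same length, 12.03% held TGTTTA, 6.02% CACGTG, 14.0% AGGTCA and 1.55% TGACGTCA. These motifs were chosen after the sequences had been seen, and a match describes letters, not a site that is bound.

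The labels were checked against Foxd1. It lay between 2.497 and 2.77 FPKM in the early mutant libraries, against 25.0 and 30.3 in the early wild-type libraries, and at 0.396 and 0.230 against 3.90 and 1.96 at E17.5, so every library was on the side its label gives. FPKM is a fragment count scaled by transcript length and library size. Of 13 markers of the hypothalamus, 11 or 12 reached 1 FPKM in each library. Depth, estimated from the steps between low FPKM values, was 30260000 to 43460000 fragments at E17.5. The same estimate gave 4040000 to 56180000 at E12, where the steps were too blurred to trust it.

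At E12 the 3 peptide genes were at or near the limit of detection in both genotypes. Oxt was listed at 0 in all 4 libraries. Avp was listed at 0 in 3 of them and at 0.0892 FPKM in the wild-type library of E12.5. Crh followed the same pattern, at 0.0432 FPKM in that 1 wild-type library and 0 in the other 3. The 2 values above 0 thus came from the same library. With 1 library per genotype and stage and nearly all values at 0, no difference between genotypes was detectable at E12. The members did not reach the mean of 1 FPKM required for a test there.

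By E17.5 all 3 peptide genes were well detected in wild-type tissue and lower in both mutant libraries. Avp measured 71.6 and 62.1 FPKM in the wild-type libraries against 9.38 and 3.43 in the mutant libraries. Oxt measured 8.10 and 7.72 FPKM (wild-type) against 1.39 and 1.43 (mutant). Crh measured 4.71 and 3.55 FPKM (wild-type) against 1.77 and 1.60 (mutant). The genotypes did not overlap for any of the 3 genes, a pattern that 22.2% of the 13235 genes tested at E17.5 showed in the same direction. A gap of at least 2-fold between the lowest wild-type and the highest mutant library was present in each of the 3 members and in 0.113% of all genes tested. Because whole tissue was sequenced, fewer peptide neurons and less peptide RNA per neuron cannot be told apart. Markers of the hypothalamus as a whole were also lower on average in the mutant libraries (median log2 difference -0.31), and those of telencephalon (0.63) and meninges (0.55) higher, as set out with the other cell types.

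**Figure D1:**
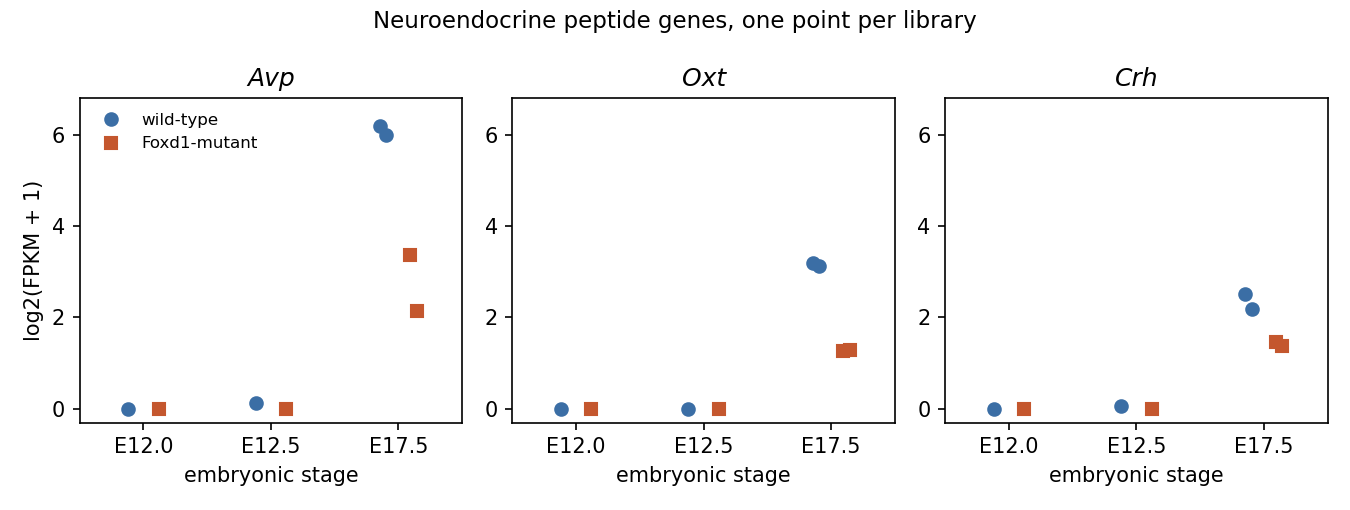
Level of Avp, Oxt and Crh, as log2(FPKM + 1), in each of the 8 libraries by embryonic stage, with 1 point per library (circles wild-type, squares Foxd1-mutant). At E12 all points lie at or near 0, and at E17.5 both wild-type points lie above both mutant points in each panel.

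The size of the gap differed among the 3 genes. For Avp the mean was 66.9 ± 6.66 FPKM in wild-type and 6.40 ± 4.21 in mutant (SD, n = 2 each), a 10.4-fold difference. For Oxt the means were 7.91 ± 0.269 and 1.41 ± 0.0255 FPKM (SD, n = 2 each), a 5.61-fold difference. For Crh the means were 4.13 ± 0.820 and 1.69 ± 0.117 FPKM (SD, n = 2 each), a 2.45-fold difference. Relative to the wild-type mean, the mutant libraries held 14.0% and 5.13% of Avp, 17.6% and 18.0% of Oxt, and 42.9% and 38.9% of Crh. These ranges did not overlap between the genes, so the order of the loss, Avp before Oxt before Crh, was the same in both mutant libraries. In mutant replicate 1 the step from Avp to Oxt, 14.0% to 17.6%, was within the counting error of Oxt.

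The genes were tested with limma, a linear model fitted across the 13235 genes whose mean over the 4 libraries reached 1 FPKM, on log2(FPKM + 1), which understates the change of low genes. Oxt fell by 1.89 on this scale (95% interval -2.07 to -1.70, limma adjusted p = 0.00716), and it alone passed the adjusted threshold of 0.05, 0.00756% of genes tested. Avp had a log2 difference of -3.32 (95% interval -4.26 to -2.38, standard error 0.376), with an unadjusted limma p of 0.000171 and an adjusted p of 0.585. Crh had a log2 difference of -0.92 (95% interval -1.24 to -0.61, standard error 0.127), with an unadjusted limma p of 0.000481 and an adjusted p of 0.679. At an unadjusted p under 0.05, which all 3 members met, limma gave 466 genes lower in the mutant, 3.52% of those tested. Ranked from the lowest log2 difference, Avp was number 4, Oxt number 9 and Crh number 19 of the 13235 genes, and number 1, 3 and 9 of the 13184 that remained when small RNA genes were set aside. An exact two-sided permutation test over the 4 libraries gave p = 0.333 for each gene, the smallest value that its 6 arrangements allow.

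Which of the genes passed depended on the libraries used. The call on Oxt was lost without wild-type replicate 1 (limma adjusted p = 0.0534) and without wild-type replicate 2 (0.0793), with log2 differences of -1.86 and -1.92. Avp, whose mutant libraries differed by 2.74-fold, passed when either of them was left out, at adjusted p = 0.00287 without mutant replicate 1 (log2 difference -3.93) and 0.0130 without mutant replicate 2 (-2.71). In those fits the lone mutant library is assumed to vary like the wild-type pair. Crh passed in none of the 4 fits that left out a library.

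The precision of each level was read from the number of fragments behind it, estimated from the FPKM, the transcript length and the depth. The intervals are 95% Poisson intervals, which cover counting error only and take the estimate of depth as given. Avp rested on about 1002 (941 to 1066) and 1099 (1035 to 1166) fragments in wild-type and on about 156 (132 to 182) and 42.2 (30.5 to 57.0) in the 2 mutant libraries. The mutant libraries differed beyond these intervals, at depths of 40800000 and 30260000 fragments. Oxt rested on far fewer, about 102 (83.4 to 124) and 123 (102 to 147) in wild-type and about 20.8 (12.9 to 31.9) and 15.8 (9.03 to 25.8) in mutant. The intervals of its mutant libraries overlapped, and their width is large beside the closeness of the 2 FPKM values. Crh rested on about 186 and 177 fragments in wild-type and 83.1 and 55.8 in mutant. In each gene the intervals of the wild-type libraries lay above those of the mutant libraries.

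**Figure D2:**
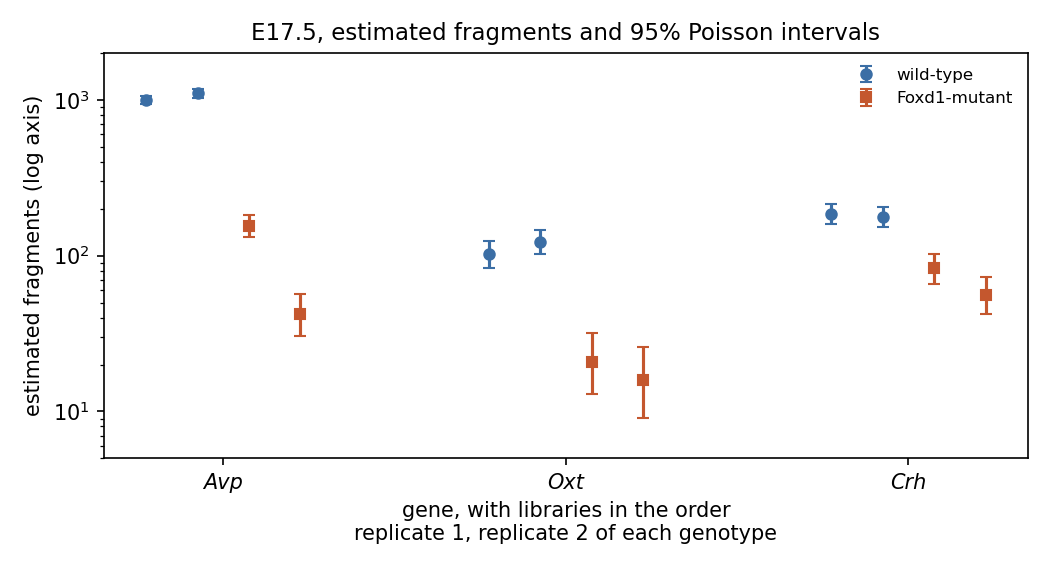
Estimated number of fragments (log axis) of Avp, Oxt and Crh in the 2 wild-type (circles) and 2 mutant (squares) libraries of E17.5, with 95% Poisson intervals as bars. The mutant libraries differ beyond their bars for Avp (156 and 42.2 fragments) and overlap for Oxt (20.8 and 15.8) and Crh (83.1 and 55.8). Fragments are not scaled for depth, estimated at 40800000 in mutant replicate 1 and 30260000 in mutant replicate 2. In FPKM, which is scaled, these libraries differ by 2.74-fold for Avp, 1.03-fold for Oxt and 1.10-fold for Crh.

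The proportions of the 3 transcripts to one another also differed between genotypes. FPKM is scaled by length, so levels can be set beside each other within a library. In wild-type tissue the order was Avp, then Oxt, then Crh, with the 2 libraries of each gene clear of those of the next. In the mutant libraries Avp was still highest, but Crh lay above Oxt, by a margin within the counting intervals of Oxt. Oxt was 1.72 and 2.18 times Crh in the wild-type libraries and 0.786 and 0.889 times Crh in the mutant libraries. Avp was 8.84 and 8.05 times Oxt in wild-type and 6.74 and 2.40 times Oxt in mutant. Avp made up 84.8% and 84.7% of the summed FPKM of the 3 genes in wild-type, and 74.8% and 53.1% in mutant.

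Reads from the stretch that Avp and Oxt share may enter these ratios. Between the mutant libraries Avp differed by 2.74-fold and Oxt by 1.03-fold in FPKM. The counting intervals of Oxt there, 12.9 to 31.9 and 9.03 to 25.8 fragments, are too wide to show whether Oxt tracked Avp. The part that ambiguous reads had in either level was not tested.

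Other peptides and hormones of neuroendocrine neurons did not separate by genotype at E17.5. Of 9 such genes 7 reached a mean of 1 FPKM, and in none of those 7 did the genotypes separate. Most genes tested did not separate either, as 22.2% did so with lower and 20.9% with higher mutant values. Trh, the thyrotropin-releasing hormone precursor, measured 14.8 and 15.6 FPKM (wild-type) against 21.3 and 14.3 (mutant). Sst, the somatostatin precursor, measured 75.7 and 70.2 FPKM (wild-type) against 58.0 and 99.8 (mutant). For both genes 1 mutant library lay above and 1 below the wild-type pair. Ghrh, the precursor of growth hormone-releasing hormone, measured 5.15 and 4.67 FPKM (wild-type) against 4.73 and 4.76 (mutant). Gnrh1 (log2 difference -0.06), which encodes gonadotropin-releasing hormone, the neurokinin B gene Tac2 (-0.07), the dopamine synthesis enzyme gene Th (-0.16) and the nesfatin gene Nucb2 (0.08) differed by small amounts. Kiss1, the kisspeptin gene, stayed under the filter with 0.884 and 0.839 FPKM (wild-type) against 0.977 and 0.202 (mutant), and Prlh was listed at 0 in all 4 libraries. No gene of the 7 passed the limma threshold, adjusted or unadjusted, and their median log2 difference was -0.04, beside 0.00 over all genes tested. The mutant libraries held 69.5% to 141% of the wild-type mean for these 7 genes, against 5.13% to 42.9% for Avp, Oxt and Crh.

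**Figure D3:**
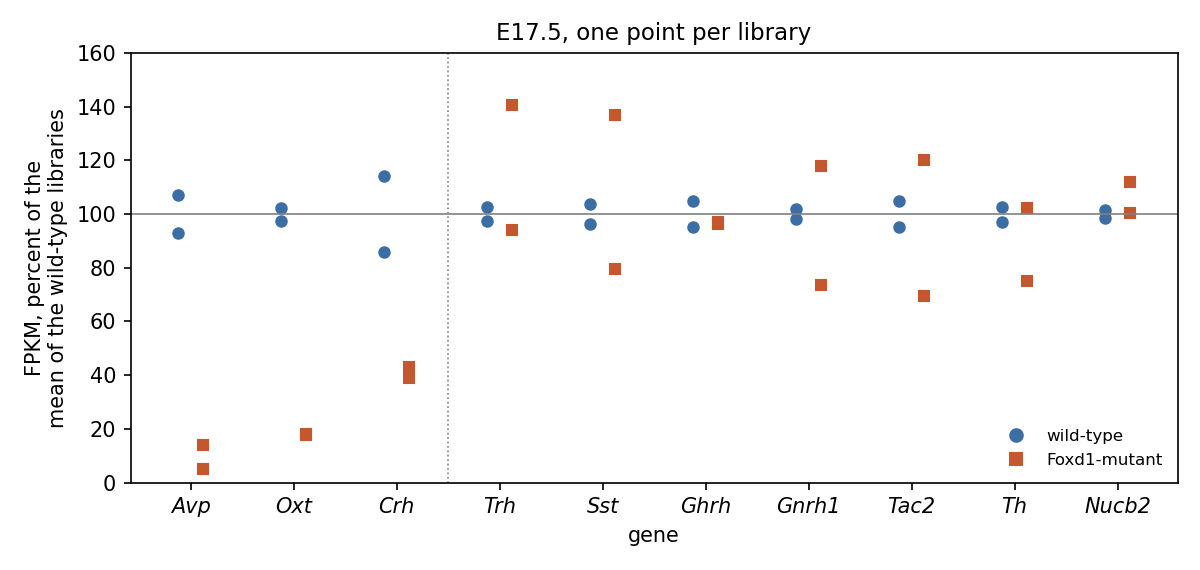
FPKM at E17.5 in each library, as percent of the mean of the 2 wild-type libraries, for Avp, Oxt and Crh (left of the dotted line) and 7 other neuroendocrine peptide and hormone genes (right). Both mutant libraries (squares) lie between 5.13% and 42.9% on the left and between 69.5% and 141% on the right.

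Peptides and enzymes often found in the same neurons were also examined. All 10 co-transmitter genes were tested, 6 with lower and 4 with higher values in the mutant, with a median log2 difference of -0.07. None passed the adjusted limma threshold. Pdyn and Adcyap1 (lower) and Nts (higher) did at an unadjusted p under 0.05, where 3.52% and 2.18% of all genes tested did. Pdyn, the dynorphin precursor, which magnocellular vasopressin neurons also make, measured 10.3 and 9.74 FPKM (wild-type) against 9.08 and 6.99 (mutant). Nts, the neurotensin precursor, measured 20.4 and 17.4 FPKM (wild-type) against 22.6 and 27.2 (mutant), the largest difference on the list (log2 0.38, adjusted p = 0.689). Smaller differences were those of Nos1 (0.19), nitric oxide synthase, of Adcyap1 (-0.15), the PACAP precursor, and of the peptide precursors Apln (0.14), Penk (0.13), Gal (-0.11) and Cartpt (-0.08).

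Vasopressin, oxytocin and corticotropin-releasing hormone are cut from their precursors and stored in dense-core granules. Of 14 genes for this machinery 12 were lower on average in the mutant libraries, by small amounts (median log2 difference -0.08). None passed the adjusted limma threshold, and 3 did at an unadjusted p under 0.05, where 3.52% of all genes tested were lower. These 3 were Pcsk1n (-0.44), an inhibitor of prohormone convertases, Pcsk2 (-0.30), a convertase, and Ptprn (-0.28), a granule membrane protein. Pcsk2 measured 17.6 and 18.4 FPKM (wild-type) against 15.3 and 13.6 (mutant). Both mutant libraries lay below both wild-type libraries in 7 of the 14, beside 22.2% of all genes tested.

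Receptors for the 3 peptides differed widely in level at this stage. Of 11 receptor, binding protein, peptidase and sister ligand genes, 5 reached a mean of 1 FPKM and none passed the adjusted limma threshold, with 1, Avpr1a, lower at an unadjusted p under 0.05, beside 3.52% of all genes tested. Avpr1a, a vasopressin receptor, measured 2.79 and 3.16 FPKM (wild-type) against 2.45 and 2.33 (mutant). Oxtr, the oxytocin receptor, measured 0.942 and 1.29 FPKM (wild-type) against 1.16 and 1.27 (mutant), with overlapping genotypes. Crhr1, the main receptor of corticotropin-releasing hormone, measured 4.69 and 4.42 FPKM (wild-type) against 4.58 and 4.04 (mutant), a log2 difference of -0.07. Crhbp, which encodes its binding protein, had one of -0.21, and Lnpep, a peptidase that cleaves oxytocin and vasopressin, one of 0.10. Avpr1b, Avpr2 and the urocortin genes Ucn, Ucn2 and Ucn3 reached at most 0.277 FPKM in any E17.5 library.

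Transcription factors that form or maintain neurosecretory neurons were present well before the peptides. At E12 all 8 of them had a mean above 1 FPKM while Avp, Oxt and Crh were at or near 0. Otp, a homeobox gene needed for these neurons, measured 71.2 FPKM (wild-type) against 34.8 (mutant) at E12.0 but 39.2 against 46.8 at E12.5, so its direction differed between the early stages. Sim1 measured 16.7 FPKM (wild-type) against 15.9 (mutant) at E12.0 but 18.2 against 23.0 at E12.5. With 1 library per genotype and stage, a difference between these stages cannot be told apart from one between single libraries. The wild-type library of E12.0 also had the largest share of FPKM in small RNA genes, 20.8%, against 7.83% to 15.9% in the other E12 libraries. None of the 8 passed the limma threshold at E12, adjusted or unadjusted, where 0.0335% of 11952 genes passed the adjusted and 1.41% the unadjusted one.

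At E17.5, 7 of the 8 were tested and in 5 both mutant libraries lay below the wild-type pair, beside 22.2% of all genes tested. Their median log2 difference was -0.14. None passed the adjusted limma threshold, and Otp and Sim1 did at an unadjusted p under 0.05, beside 3.52% of all genes tested. Otp measured 8.90 and 8.60 FPKM (wild-type) against 6.21 and 3.52 (mutant) (log2 difference -0.77, adjusted p = 0.689). As with Avp, mutant replicate 2 had the lower value. Sim1 measured 10.6 and 9.89 FPKM (wild-type) against 8.23 and 8.34 (mutant). The mutant libraries thus held 70.9% and 40.2% of Otp and 80.2% and 81.3% of Sim1, more than of any of the 3 peptide genes in the same library. In mutant replicate 2 the step from Crh, 38.9%, to Otp, 40.2%, was within the counting error of Crh. Smaller differences were those of Pou3f2 (-0.17), Pou3f1 (-0.14), Arnt2 (-0.09), Bsx (0.03) and Nhlh2 (0.02), and Sim2 stayed under the filter.

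**Figure D4:**
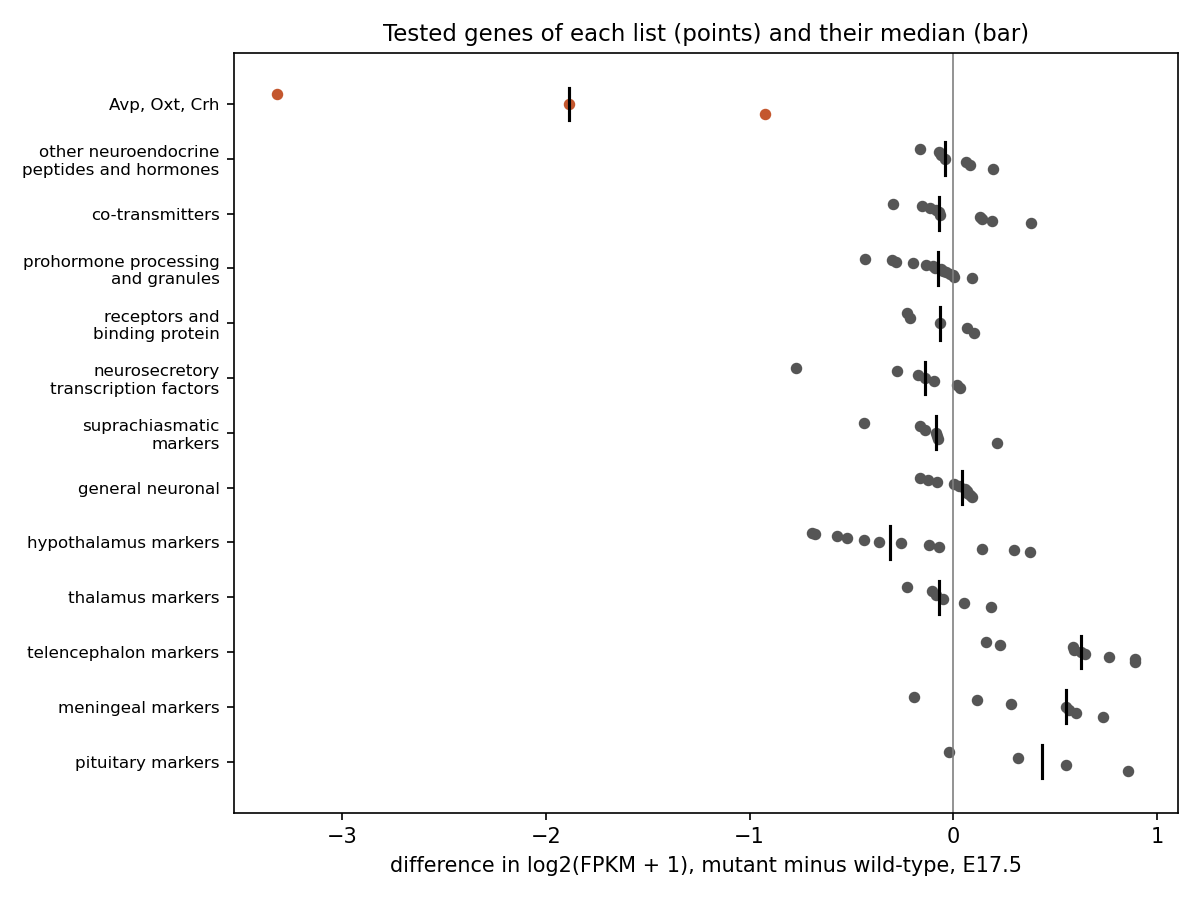
Difference in log2(FPKM + 1), mutant minus wild-type, at E17.5 for Avp, Oxt and Crh and for the tested genes of all 12 lists, with 1 point per gene and a bar at the median. The 3 peptide genes lie between -3.32 and -0.92. The medians of the other lists lie between -0.31 (hypothalamus markers) and 0.63 (telencephalon markers), and the lowest single gene in them is Otp (-0.77).

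Vasopressin is also made in the suprachiasmatic nucleus, so markers of that nucleus were set beside Avp. Of 11 markers 7 were tested at E17.5, of which 6 had lower values in the mutant (median log2 difference -0.09). In 4 of the 7 both mutant libraries lay below both wild-type libraries, beside 22.2% of all genes tested. In 1 both lay above, beside 20.9%. None passed the adjusted limma threshold and 1, Six6, did at an unadjusted p under 0.05, beside 3.52% of all genes tested. Six6, a homeobox gene, measured 6.14 and 5.73 FPKM (wild-type) against 4.08 and 4.16 (mutant). The neuropeptide gene Grp (log2 0.21) and the nuclear receptor gene Rorb (-0.17) did not pass. Vip, a peptide gene of the nucleus added after its values were seen, stayed under the filter. It measured 0.233 and 0.544 FPKM (wild-type) against 0.108 and 0.194 (mutant), while Avp was at 3.43 FPKM or more in every E17.5 library. Vipr2, Nms and Prok2, added likewise, were also under the filter. Vipr2 measured 0.564 and 0.518 FPKM (wild-type) against 0.137 and 0.297 (mutant), and in Nms and Prok2 the genotypes overlapped.

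Markers of the hypothalamus as a whole and of other cell types that the dissections could hold were measured in the same libraries. The summed FPKM of 13 hypothalamus markers was 195 and 157 in wild-type and 162 and 188 in mutant at E17.5. The sum is set by a few abundant genes, and gene by gene 9 of the 12 tested were lower on average in the mutant (median log2 difference -0.31), led by Hcrt (-0.70), Nkx2-4 (-0.68) and Fezf1 (-0.57). In 8 of the 12 both mutant libraries lay below both wild-type libraries, beside 22.2% of all genes tested, and 6 were lower at an unadjusted limma p under 0.05, beside 3.52%. None passed the adjusted threshold.

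For 9 telencephalon markers the sum was 38.4 and 38.0 in wild-type and 42.9 and 94.5 in mutant, so mutant replicate 2, the library with the lowest Avp, was also the highest in these markers. All 9 had higher mean log2 values in the mutant (median 0.63), among them Eomes (0.89) and Neurod6 (0.77), and in 5 both mutant libraries lay above both wild-type libraries, beside 20.9% of all genes tested. At an unadjusted limma p under 0.05 there were 4, beside 2.18%, and none passed the adjusted threshold. The sum of 7 meningeal markers was 161 and 102 in wild-type against 173 and 126 in mutant, mostly the collagen genes Col1a1 and Col1a2. Gene by gene, 6 of the 7 were higher on average in the mutant (median log2 difference 0.55), led by Dcn (0.74), Tbx18 (0.60) and Slc13a4 (0.57). In 4 of the 7 both mutant libraries lay above both wild-type libraries, 4 were higher at an unadjusted limma p under 0.05, and none passed the adjusted threshold.

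The sum of 10 general neuronal genes was 2708 and 2818 in wild-type and 2737 and 2628 in mutant, with a median log2 difference of 0.04. For 6 thalamus markers the sum was 58.2 and 63.4 against 59.2 and 59.7 (median -0.07). For 10 pituitary markers it was 110 and 45.7 against 76.3 and 93.3, with 4 genes tested (median 0.43). In none of these 4 did the genotypes separate, beside 22.2% of all genes tested that separated with lower and 20.9% with higher mutant values. Pou1f1, a pituitary factor, was at 0 in wild-type replicate 2, and no other marker of these lists was at 0 at E17.5. Without mutant replicate 2, the library highest in telencephalon markers, the log2 differences were -2.71 for Avp, -1.90 for Oxt and -0.88 for Crh. The part of tissue composition in the lower peptide values was not tested.

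The difference between stages in the genotype effect was also fitted over all 8 libraries, with stage as a block. For the peptide genes it adds no evidence to the E17.5 comparison, because Oxt was listed at 0 in every E12 library, Avp and Crh at or near 0, and all 3 met the filter on the mean through their E17.5 values. The fitted differences were -3.26 for Avp, -1.89 for Oxt and -0.89 for Crh, for Oxt the same value as at E17.5. Limma called 4 of 12519 genes in this fit, 0.032%, with Oxt among them (adjusted p = 0.0466) and Avp and Crh not (0.749 each). That call on Oxt was lost without any 1 of the 4 E17.5 libraries, at limma adjusted p between 0.280 and 0.467.

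Genes whose levels followed those of the 3 peptides most closely were found, among 12148 candidates, by Pearson's r of log2(FPKM + 1) over the 8 libraries. The libraries share stage and genotype, and the 4 of E12 lie together near 0, so r here describes the step to E17.5 and the gap within it. Values were deposited per gene at E12 and per transcript at E17.5, so the step cannot be told apart from that difference. For Avp the closest were Oxt (r = 0.990), Zfp459 (0.982), Crh (0.981), Slc6a3 (0.970) and Tesc (0.963), and for Oxt they were Avp (0.990), Slc6a3 (0.977), Crh (0.976), Zfp459 (0.962) and Tesc (0.959). For Crh they were Tesc (0.988), Lrrc10b (0.985), Krt13 (0.984), Hcrt (0.984) and Gstm6 (0.984). The 3 peptide genes were thus among the closest to each other, except that neither Avp nor Oxt was among the 5 closest to Crh. Tesc, which encodes a calcium-binding protein, measured 3.10 and 3.13 FPKM (wild-type) against 1.65 and 1.67 (mutant) at E17.5 and at no more than 0.289 in any E12 library. Slc6a3, the dopamine transporter gene, measured 1.71 and 2.91 FPKM (wild-type) against 0.739 and 0.732 (mutant). Hcrt, the orexin precursor of lateral hypothalamic neurons, measured 9.12 and 7.57 FPKM (wild-type) against 5.74 and 3.91 (mutant). Among these genes other than Oxt, none passed the adjusted limma threshold at E17.5 (adjusted p = 0.668 for Tesc and 0.689 for Slc6a3 and Hcrt).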

How the data were processed

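Paired-end reads of 100 cycles (HiSeq 2500) from 1 library of pooled RNA per sample were aligned with TopHat and summarised with Cufflinks on mm9, per the submitters' processing notes, without versions. The authors deposited FPKM per gene at E12 and per transcript at E17.5. Rows were summed by symbol (each of Avp, Oxt and Crh has 1 row per table), and 8 rows without a gene name, under 0.04% of FPKM, were left out at E12. Log2(FPKM + 1) was tested with limma 3.58.1 (R 4.3.3), with a variance trend, a filter at a mean of 1 FPKM, two-sided tests and Benjamini-Hochberg adjustment over all genes. E17.5 was fitted without and E12 with stage as a block. The members and lists were chosen with earlier results of these data known. From each list the members past the threshold, then those with the largest difference at E17.5, were named, up to 3 or, for peptides, receptors and factors, 8 or all; of the marker lists of other tissues mostly sums are given, and 1 marker gene is not reported here by name. Genes of like pattern were the 5 with the highest r per member, leaving out predicted, small RNA and sex-linked genes. Alternatives changed the pseudocount, filter, scaling, trend, block, row choice and libraries. The fits were tested on simulated data with the same spread in every gene and a large difference in the changed genes. That checks the code, not the calls on the real libraries. Depth came from single-transcript rows over 2500 nt, less 170 nt for the fragment: 79.5% to 80.4% of low values (at most 5 fragments) came out whole, to within 0.1, at E17.5, and 31.1% to 41.2% at E12. Exons were compared with Biopython 1.88.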

Additional observations from a re-analysis of the deposited data

Results flagged for a closer look

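The fit of the difference between stages gave -1.89 for Oxt on the log2(FPKM + 1) scale (mutant minus wild-type, E17.5 minus E12, limma adjusted p = 0.0466 over 12519 genes), and is listed because that p passed its threshold. Oxt was listed at 0 in all 4 E12 libraries and met the filter only through E17.5, so the value restates the E17.5 difference and is no evidence of its own. The call was lost under 8 of 14 alternatives. No outlier check was possible, since no group held more than 2 libraries.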

How the results depend on the processing

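The lower values of Avp, Oxt and Crh kept their direction under all 14 alternatives at E17.5, with log2 differences from -3.93 to -2.70, -2.41 to -1.01 and -1.23 to -0.45. The call on Oxt was lost with no filter (-1.89, adjusted p = 0.0901, no gene called by limma but 1053 at an unadjusted p under 0.05) and without either wild-type library, and leaving out 1 library gave -1.92 to -1.86 for Oxt, -3.93 to -2.71 for Avp, -1.09 to -0.76 for Crh and 1 to 44 genes called (4 and 1 without wild-type replicates 1 and 2, 44 and 10 without mutant replicates 1 and 2). Same-numbered E17.5 libraries correlated at 0.03 in their deviations from the group means and share only a number; with that number as a replicate block 16 genes passed, among them Avp (-3.32) and Crh (-0.92). At E12 the count of 4 genes became 1 with pseudocount 5, with no filter, with quantile normalization and with no trend, 134 with upper-quartile scaling and 78 with no stage block. For the difference between stages 1 gene passed with pseudocount 0.1, pseudocount 5 or quantile normalization, 2 with the highest row per symbol, and none with no filter (877 at an unadjusted limma p under 0.05), while 48 passed without both E12.0 libraries and 1515 without both E12.5 libraries. There Oxt did not pass with quantile normalization (-1.92), no filter (-1.89), the highest row per symbol (-1.89) or pseudocount 0.1 (-2.41, adjusted p = 0.724), and Avp passed without both E12.5 libraries (-3.32). Leaving out 1 E17.5 library gave 0 to 1 genes (0 without wild-type replicate 1, with 186 at an unadjusted limma p under 0.05) and -1.92 to -1.86 for Oxt, and without wild-type replicate 1 Crh fell under the filter. The causes were not tested. Depth at E12 is uncertain, and the peptide genes were at or near 0 there.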
